A study of Homo sapiens with 11 samples.

Results

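Transcripts of 9 genes of the interleukin 1 (IL-1) family and its signalling apparatus were followed across 11 xenograft tumours. The genes, taken by symbol from a table of 28152 gene symbols, were the agonists IL1A and IL1B, the related cytokines IL18 and IL33, the antagonist IL1RN, the receptor chains IL1R1 and IL1RAP, and the receptor-proximal kinases IRAK1 and IRAK2. All 9 had a row in the table. The tumours are labelled BT-474, a breast cancer line of human origin, hormone receptor-positive and HER2-positive by its label, placed in the mammary fat pad of female athymic nude mice. Every animal carried an estradiol pellet (0.72 mg, 90-day release), and a tumour entered the study once it exceeded 95 cubic millimetres. The 6 vehicle animals received 5% mannitol in water under the skin every 4 days, and the 5 evexomostat animals received evexomostat (SDX-7320, an inhibitor of methionine aminopeptidase 2, MetAP2) at 12 mpk by the same route and schedule. All libraries are labelled day 33. Athymic nude mice lack mature T cells but keep macrophages and neutrophils, and a tumour portion can hold host tissue, so in these bulk samples fewer cells of a type and less RNA per cell cannot be told apart.

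IL-1 alpha and IL-1 beta, encoded by IL1A and IL1B, bind the receptor chain IL1R1, which then recruits the accessory chain IL1RAP. The paired chains dock MYD88 and the IRAK kinases, and the signal runs through TRAF6 to NF-kB and MAP kinases, which switch on inflammatory genes such as chemokines and PTGS2. The receptor antagonist IL1RN occupies IL1R1 without recruiting IL1RAP. IL-18 and IL-33 use related receptors, and IL-1 beta and IL-18 are made as precursors that caspase-1 cleaves in inflammasomes.

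Library totals ranged from 22808033 to 39249329 counts, and 3 counts corresponded to 0.0764 to 0.132 RPM (reads scaled by the library total, as deposited), a floor that covers counting error only. Vehicle replicate 001 stood apart: 23.9% of counts there fell in the top 100 genes and 13.5% in ribosomal protein genes, where the other 10 libraries had 16.2% to 17.9% and 4.57% to 8.24%. Of the markers of the labelled line, KRT8 and KRT18, keratins of luminal epithelium, were abundant, whereas transcripts of ESR1 and PGR, the estrogen and progesterone receptors, had at most 17 and 5 counts in any library. CDH1, KRT19, ESR1 and PGR averaged under 1 CPM (TMM-normalised counts scaled like RPM). ERBB2, which encodes HER2, averaged 52.5 CPM under vehicle and 54.3 under evexomostat. The hormone receptor transcripts that the label names were thus near the floor, 2 further luminal epithelial markers (CDH1 and KRT19) were nearly absent, and ERBB2 was only moderate for a line labelled HER2-positive. Whether these columns hold the labelled line is therefore in doubt, and every level and difference below is that of the libraries so labelled. Nothing in the labels says more about how the tumours were replicated than 1 title per library, so the p-values below measure the spread between these libraries.

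Shown here are the promoter windows of both agonists and of the pair of signalling genes IRAK2 and IL1RAP, as examples of members with lower mean levels under evexomostat. IL1B, IRAK2 and IL1RAP have 1 window each, and for IL1A the first of an overlapping pair is given. IL1R1, with 4 windows and no AP-1 match in any, is not printed. The windows come from RefSeq on GRCh38.p14, run 5′ to 3′ from 250 bases before to 50 bases after an annotated start, and have 300 bases. Capitals mark matches on either strand to the AP-1 motif TGANTCA or to the GC box GGGCGG.
IL1A, chr2:112784444-112784743, minus strand: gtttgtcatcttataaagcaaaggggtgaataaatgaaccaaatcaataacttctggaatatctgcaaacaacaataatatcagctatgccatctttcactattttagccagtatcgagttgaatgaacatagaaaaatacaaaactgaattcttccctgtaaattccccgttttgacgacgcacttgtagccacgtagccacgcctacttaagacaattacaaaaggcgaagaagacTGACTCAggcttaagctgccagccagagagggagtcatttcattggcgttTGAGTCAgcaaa
IL1B, chr2:112836730-112837029, minus strand: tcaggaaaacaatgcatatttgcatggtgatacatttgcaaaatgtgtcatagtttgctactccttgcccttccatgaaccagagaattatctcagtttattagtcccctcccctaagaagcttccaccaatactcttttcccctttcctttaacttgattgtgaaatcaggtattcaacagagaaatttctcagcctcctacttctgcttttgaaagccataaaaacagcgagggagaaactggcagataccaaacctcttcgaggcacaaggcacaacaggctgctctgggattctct
IRAK2, chr3:10164669-10164968, plus strand: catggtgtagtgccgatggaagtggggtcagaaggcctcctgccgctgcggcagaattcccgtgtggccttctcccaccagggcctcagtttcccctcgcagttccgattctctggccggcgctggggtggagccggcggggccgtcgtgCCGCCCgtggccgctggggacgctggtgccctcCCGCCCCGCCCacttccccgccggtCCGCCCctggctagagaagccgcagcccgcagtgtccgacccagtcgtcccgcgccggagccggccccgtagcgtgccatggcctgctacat
IL1RAP, chr3:190513835-190514134, plus strand: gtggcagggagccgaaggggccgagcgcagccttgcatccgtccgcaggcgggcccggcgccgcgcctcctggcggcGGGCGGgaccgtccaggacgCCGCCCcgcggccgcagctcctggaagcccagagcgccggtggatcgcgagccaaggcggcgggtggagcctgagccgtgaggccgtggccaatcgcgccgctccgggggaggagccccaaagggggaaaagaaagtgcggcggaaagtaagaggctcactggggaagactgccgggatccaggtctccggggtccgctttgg

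The IL1A window held 2 AP-1 matches and the IL1B window none, while neither agonist had a GC box. The sequence TATAAA, also searched on both strands but not capitalised, matched once, in IL1A at position -239 from the start. IRAK2 had 4 GC box matches, of which a pair overlap, and IL1RAP had 2. Among 35116 windows of this length, 7.71% held an AP-1 match, 45% a GC box and 11.5% TATAAA. The NF-kB consensus was found in none of the 15 windows listed for the 8 members with an entry, against 5.91% of all windows. These matches describe letters only and say nothing of binding.

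Compared per kilobase of exon, in TMM-normalised CPM per kilobase, IRAK1 was the most abundant member and the antagonist was close to the floor. Under vehicle IRAK1 led with a level of 279.7 ± 83.1 (SD, n = 6) CPM per kilobase, followed by IRAK2 at 40.7 ± 12.1, IL18 at 26.5 ± 7.79, IL1A at 23.7 ± 6.52 and IL1B at 18.2 ± 7.77. IL1R1 came next at 10.5 ± 5.98, and its partner IL1RAP at 3.00 ± 0.893. IL1RN and IL33 were at 0.127 ± 0.128 and 0.0797 ± 0.104. Neighbours in this order from IRAK2 to IL1R1 had SD ranges that overlapped, as did IL1RN and IL33, while IRAK1 stood above all others. Under evexomostat (n = 5) the means of the 7 more abundant genes kept this order, with IRAK1 at 253.1 ± 50.4, IRAK2 at 27.1 ± 4.67, IL18 at 26.8 ± 2.72, IL1A at 13.6 ± 6.41, IL1B at 11.6 ± 5.76, IL1R1 at 4.83 ± 1.12 and IL1RAP at 2.06 ± 0.510 CPM per kilobase, while IL33 (0.0674 ± 0.0354) and IL1RN (0.0636 ± 0.0435) were in the opposite order. Exon lengths came from GENCODE release 29 and not from the annotation behind the counts, so these levels are approximate. Use of strand is not given in the sources used here. In GENCODE, IL1R1 shares 11 exonic bases with the antisense gene IL1R1-AS1, IL1RAP shares 535 with a long noncoding RNA of the same strand, and IRAK1 contains the microRNA gene MIR718.

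**Figure D1:**
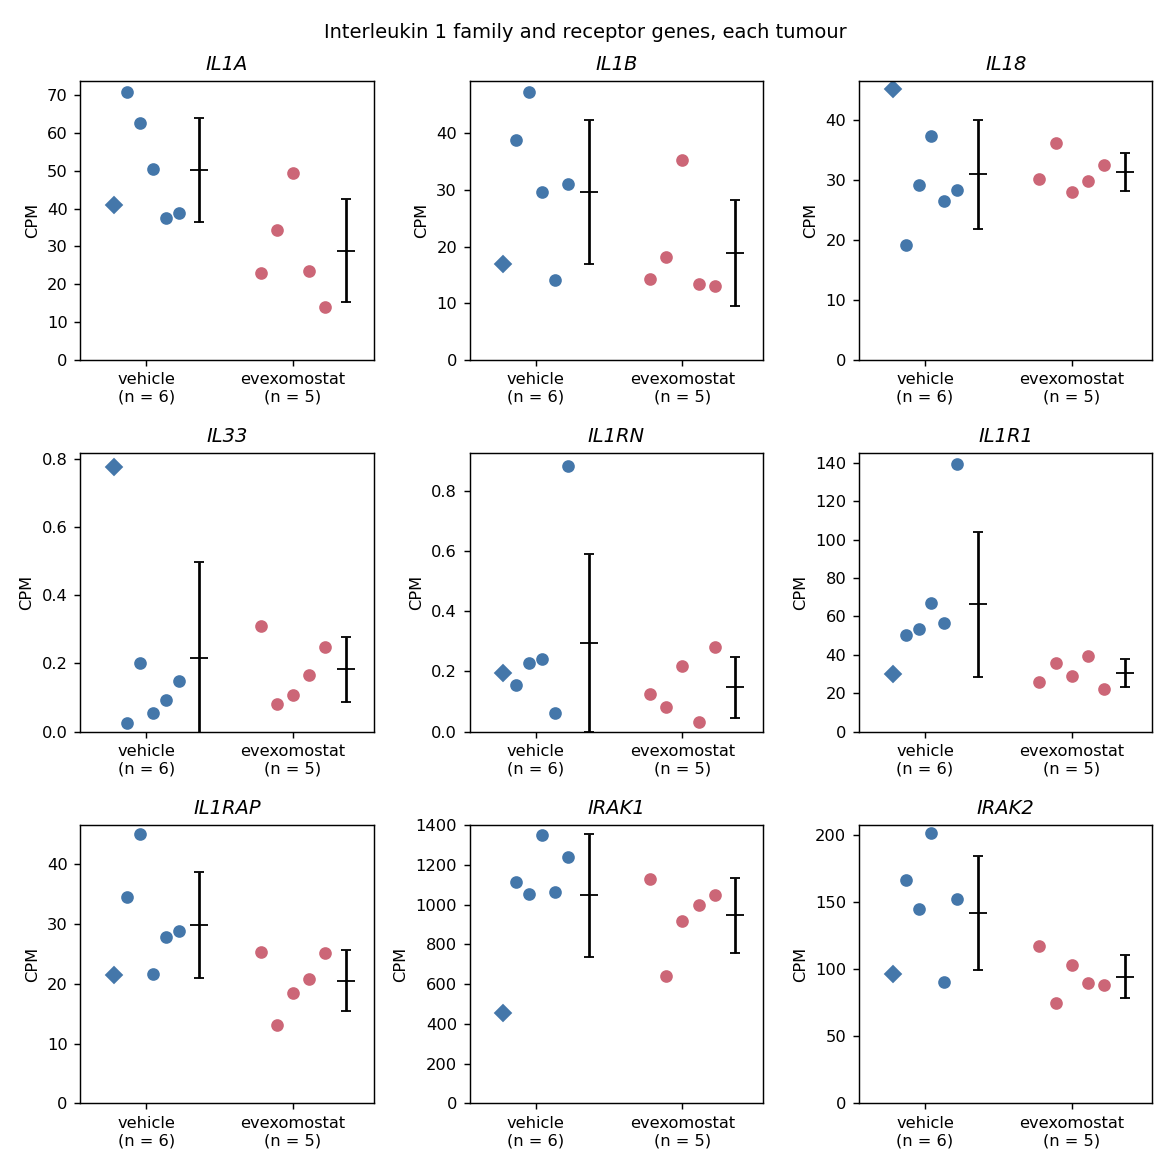
Level of each of the 9 genes in every tumour, in CPM (y axis, starting at 0, with its own scale in each panel), for vehicle (blue) and evexomostat (red); the black bar is the mean ± SD and is cut at 0 where the SD exceeds the mean, and the diamond is vehicle replicate 001. The groups overlap in every panel, and in IL1R1 the overlap comes from vehicle replicate 001 alone.

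In tests of evexomostat against vehicle, none of the 7 members with enough counts passed the threshold. IL1R1, IL1A, IRAK2 and IL1RAP had lower mean levels under evexomostat, with log2 fold changes of -1.12, -0.80, -0.59 and -0.54 and unadjusted p-values under 0.05, but their adjusted p-values in edgeR's quasi-likelihood test ran from 0.137 to 0.305. The count past an adjusted p of 0.05 was 0 of 7 in edgeR, limma-voom and limma-trend, 1 of 7 in DESeq2 (IL1R1) and 2 of 7 in limma-voom with sample quality weights (IL1R1 and IRAK2). Among all 16653 genes tested, edgeR called 101 (0.606%), of which 29 were higher (0.174%) and 72 lower (0.432%). The higher genes made up 28.7% of these calls, 40% with upper quartile scaling, and 58.1% and 55.9% of the 74 and 68 calls that limma-trend made on log2 RPM with pseudocounts of 1 and 0.1. DESeq2 called 649 of its 16539 adjusted genes (3.92%), and quality weights 1059 (6.36%). At an unadjusted p under 0.05 there were 4 of 7 members, all lower, where 13.4% of all genes passed in either direction and 8.55% were lower. The median log2 fold change was -0.59 over the 7 members and -0.04 over all genes tested. Members and the gene lists below were chosen with earlier results of these data known. Their shares and medians are therefore not independent evidence of a direction.

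The agonists IL1A and IL1B had lower means under evexomostat, with a wide spread inside each group. IL1A was at 37.6 CPM in the lowest vehicle tumour, 45.7 at the median and 70.9 in the highest, and at 23, 34.4, 49.5, 23.5 and 13.9 CPM in evexomostat replicates 002, 003, 004, 005 and 007. Thus 4 of 5 evexomostat tumours lay below every vehicle tumour, and replicate 004 lay within the vehicle range. The log2 fold change of IL1A was -0.80 (SE 0.29, edgeR adjusted p 0.237), and without evexomostat replicate 004 it was -1.08 (adjusted p 0.149). Leaving out evexomostat replicate 007 instead gave -0.62 (edgeR adjusted p 0.439). IL1B ran from 14.1 through a median of 30.4 to 47.4 CPM under vehicle, and was at 14.3, 18.1, 35.3, 13.5 and 13.1 CPM in the same evexomostat replicates. Its groups overlapped widely, since vehicle replicates 001 and 006 were at 17.0 and 14.1 CPM, next to the low evexomostat tumours. The log2 fold change of IL1B was -0.66 (SE 0.34, edgeR adjusted p 0.437). It moved to -1.01 (edgeR adjusted p 0.253) without evexomostat replicate 004 and to -0.47 (edgeR adjusted p 0.636) without vehicle replicate 004.

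Both agonists were highest in the same evexomostat tumour, replicate 004, and were in the top pair of vehicle tumours in replicates 003 and 004. Within a library, counts of IL1A were 1.06 to 2.67 times those of IL1B. On the log2 scale this ratio averaged 0.84 ± 0.44 (SD, n = 6) in vehicle tumours and 0.60 ± 0.33 (SD, n = 5) in evexomostat tumours, so the means differed by less than 1 SD.

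The related cytokines behaved differently from each other in level. IL18, an interferon-gamma-inducing cytokine, ran from 19.2 through 28.7 to 45.2 CPM under vehicle, and was at 30.1, 36.2, 27.9, 29.8 and 32.5 CPM in evexomostat replicates 002, 003, 004, 005 and 007. All 5 evexomostat tumours lay inside the vehicle range, and the log2 fold change was 0.02 (SE 0.19, edgeR adjusted p 0.986). The coefficient of variation of IL18 was 29.4% under vehicle and 10.1% under evexomostat. IL33, an alarmin released from damaged cells, had 1 to 16 counts per library and did not pass the count filter. Its highest level was in vehicle replicate 001, with 16 counts, and an exact two-sided permutation test of RPM gave p = 0.968 (n = 6 and 5), from means of 0.197 ± 0.238 and 0.188 ± 0.0939 RPM.

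The antagonist IL1RN was barely detected. It had 53 counts over the 6 vehicle libraries, of which 24 were in replicate 007, and 22 counts over the 5 evexomostat libraries, which held 4, 2, 6, 1 and 9. An exact two-sided permutation test of its RPM gave p = 0.437 (n = 6 and 5), and 0.00216 was the smallest p this design allows. With 0.5 added to each count, IL1A was at 43.2 to 482 times IL1RN within a library, and IL1B at 34.6 to 272 times. The added 0.5 lowers the upper ends of both ranges, where IL1RN had 1 or 2 counts. The log2 ratio of IL1A to IL1RN averaged 7.71 ± 1.25 (SD, n = 6) in vehicle tumours and 7.59 ± 1.28 (SD, n = 5) in evexomostat tumours. For IL1B the ratio to IL1RN was 6.87 ± 1.03 and 6.99 ± 0.986 on the same scale. Neither difference exceeded the spread between tumours, and the lowest ratios in the vehicle group, in replicate 007, came with its 24 counts of IL1RN.

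Of the 7 tested members, IL1R1, the signalling receptor chain, had both the lowest p-value and the widest fold change. IL1R1 was at 30.3 CPM in vehicle replicate 001, at 139.3 in vehicle replicate 007, and between 50.1 and 67.2 in the other 4 vehicle tumours. In evexomostat replicates 002, 003, 004, 005 and 007 it was at 25.7, 35.6, 29.1, 39.6 and 22.4 CPM. Every evexomostat tumour was therefore below 5 of 6 vehicle tumours, and the lone exception was vehicle replicate 001. The log2 fold change was -1.12 (SE 0.32), with an edgeR adjusted p of 0.137 and rank 456 of 16653 genes by p-value. Without vehicle replicate 001, the library with the high ribosomal share, it was -1.26 (SE 0.28, edgeR adjusted p 0.0284), and IL1R1 was then the 1 member called, where 865 of 16565 genes (5.22%) were called and 3.24% were called lower. The groups then did not overlap, as in 8.33% of genes against 2.97% with all 11 libraries. Without vehicle replicate 007, the highest tumour, it was -0.76 on the log2 scale, at an edgeR adjusted p of 0.166.

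IL1RAP, the accessory chain shared by the IL-1, IL-33 and IL-36 receptors, differed less. It ran from 21.5 through 28.3 to 45 CPM under vehicle and was at 25.3, 13.1, 18.4, 20.8 and 25.1 CPM in evexomostat replicates 002, 003, 004, 005 and 007. The groups overlapped, with 3 evexomostat tumours below every vehicle tumour, and the log2 fold change was -0.54 (SE 0.22, edgeR adjusted p 0.305).

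The receptor-proximal kinases were measured with the most counts. IRAK1, a kinase that joins the receptor complex through MYD88, was at 455.9 CPM in vehicle replicate 001 and between 1056 and 1351 in the other vehicle tumours. Under evexomostat it was at 1130, 639.2, 918.2, 1000 and 1051 CPM in replicates 002, 003, 004, 005 and 007. The difference of IRAK1 on the log2 scale was -0.14 (SE 0.24), at an edgeR adjusted p of 0.864. It was -0.29 (edgeR adjusted p 0.245) without vehicle replicate 001 and -0.03 (edgeR adjusted p 0.979) without evexomostat replicate 003. The sign is not fixed, since limma-trend on log2(RPM + 1) gave 0.0025. On the 8 libraries whose numbers occur in both groups it was -0.43 with a replicate block and -0.41 without (edgeR adjusted p 0.184 and 0.161). IRAK2, which sustains the later phase of NF-kB signalling, ran from 90.5 through 148.3 to 201.1 CPM under vehicle and was at 117.3, 74.4, 102.7, 89.4 and 88.0 CPM in the same evexomostat replicates. Vehicle replicates 001 and 006 lay inside the evexomostat range and the other 4 vehicle tumours above it. The log2 fold change of IRAK2 was -0.59 (SE 0.21, edgeR adjusted p 0.231). It was -0.67 (edgeR adjusted p 0.0583) without vehicle replicate 001 and -0.46 (edgeR adjusted p 0.359) without vehicle replicate 005.

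**Figure D2:**
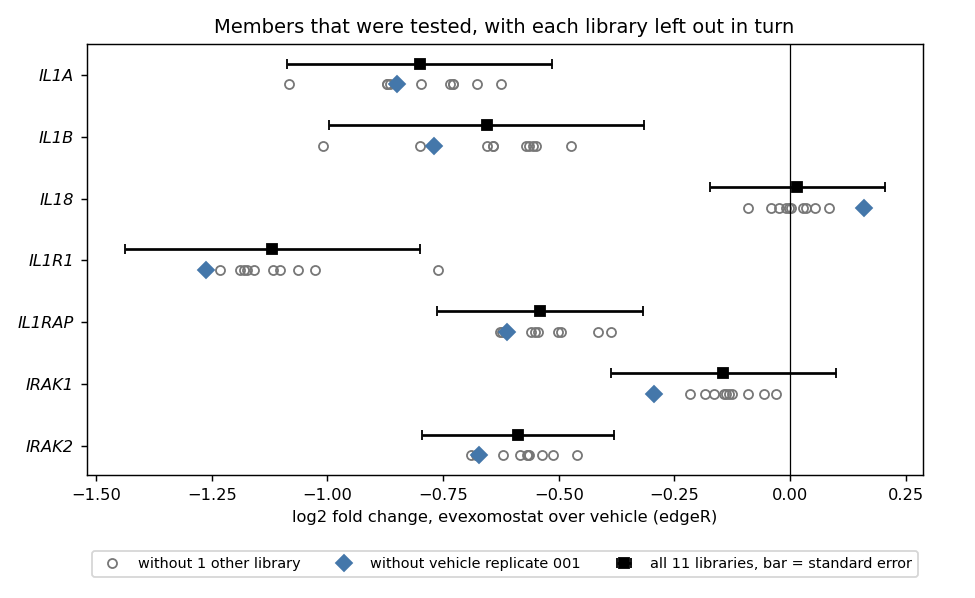
Log2 fold change of evexomostat over vehicle (x axis) for the 7 members that were tested; squares are the comparison of all 11 libraries with their standard error, open circles leave out 1 other library, and the filled diamond leaves out vehicle replicate 001. IL1R1 lies between -1.26 and -0.76 with 1 library left out, and IL18 lies on both sides of 0.

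In the authors' deposited table the members have values of like size. IL1R1 has a log2 fold change of -1.02 and an adjusted p of 0.0730 there, the smallest of the 9 in the authors' deposited table. IL1A is listed at -0.70, IL1B at -0.57, IRAK2 at -0.50, IL1RAP at -0.46, IRAK1 at -0.07, IL18 at 0.13, IL1RN at -0.86 and IL33 at 0.02 in the authors' deposited table. None of the 9 has an adjusted p under 0.05 in the authors' deposited table, where 268 of 28152 genes do.

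The profile of IL1R1 over the 11 tumours was set beside those of all tested genes that are not members. The measure was the root mean square difference of log2 CPM after each gene was centred on its own mean. The 5 closest were IRAK3 (0.21), GPD2 (0.23), TMTC1 (0.24), CACNB4 (0.25) and CGNL1 (0.26), where the median over all genes was 0.80. IRAK3, an inhibitory member of the IRAK family, was at 11.3 CPM in vehicle replicate 001, at 33.2 in vehicle replicate 007 and at 7.09 to 12.6 under evexomostat. GPD2, the mitochondrial enzyme that oxidises glycerol phosphate, reached 199.9 CPM in vehicle replicate 007, while the remaining vehicle tumours spanned 54.8 to 91.5 and the evexomostat tumours 45.1 to 55. All 5 shared with IL1R1 their lowest vehicle value in replicate 001 and their highest in replicate 007. Their selection by likeness to IL1R1 over these same tumours favours such shared extremes.

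**Figure D3:**
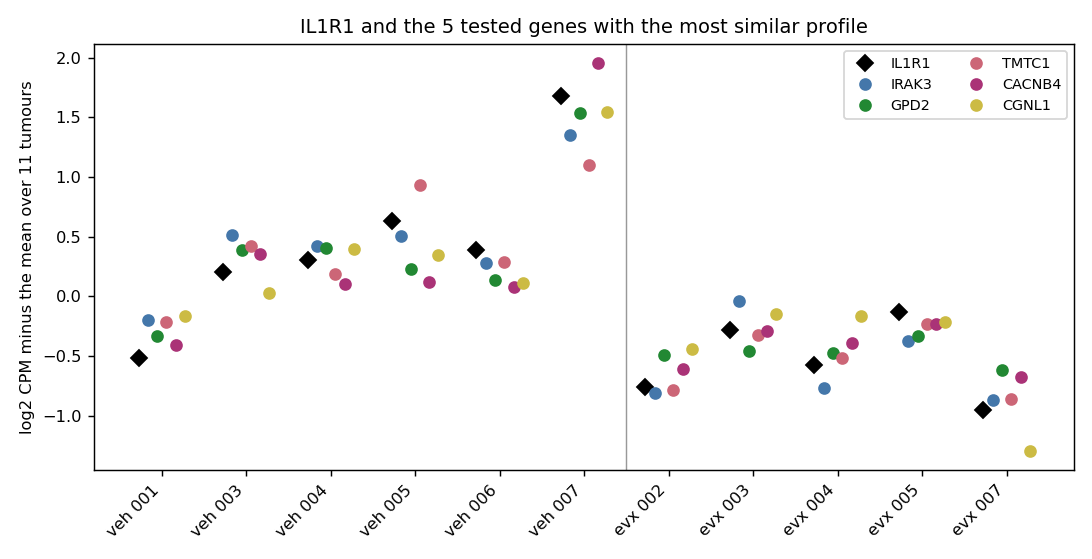
Log2 CPM minus each gene's mean over the 11 tumours (y axis) for IL1R1 (black diamonds) and the 5 genes with the smallest root mean square difference from it, with vehicle tumours left of the line (veh) and evexomostat tumours right of it (evx). Every gene shown is highest in vehicle replicate 007, and IL1R1 is lowest in evexomostat replicate 007, at 22.4 CPM.

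Other ligands of the family were scarce. Of 6 (IL36A, IL36B, IL36G, IL36RN, IL37 and IL1F10), IL37 alone passed the count filter. Its level was 0.402 ± 0.209 CPM (SD, n = 6) in vehicle tumours and 0.581 ± 0.209 CPM (SD, n = 5) in evexomostat tumours, with an edgeR adjusted p of 0.634. IL36B, named here after its values were seen, had 82 counts in vehicle replicate 007 and at most 18 in any other library.

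Of 9 other receptors and binding proteins of the family, 6 were tested and none was called in edgeR, although 3 were lower at an unadjusted p under 0.05, where 8.55% of all genes were. These 3 were IL18R1, IL1RL1 and IL1R2, named together to account for that count. IL18R1, the ligand-binding chain of the IL-18 receptor, ranked first in this list by p-value. It ran from 5.78 through 7.65 to 13.6 CPM under vehicle and was at 2.98, 5.55, 4.86, 4.80 and 2.77 CPM in evexomostat replicates 002, 003, 004, 005 and 007. Its groups did not overlap, as in 2.97% of all genes, and the log2 fold change was -0.96 (SE 0.27, edgeR adjusted p 0.128). The IL-33 receptor IL1RL1 and the decoy receptor IL1R2 were low and far highest in vehicle replicate 007. They had 17.5 and 3.64 CPM there against at most 3.26 and 0.573 CPM in the other vehicle tumours. Under evexomostat they reached at most 0.311 and 0.298 CPM, and for each gene 5 vehicle tumours lay above every evexomostat tumour. Their edgeR adjusted p-values were 0.151 and 0.163. In RefSeq's gene order IL1R2, IL1R1, IL1RL2, IL1RL1, IL18R1 and IL18RAP follow each other on chromosome 2. Vehicle replicate 007 held the highest level of each, although IL1RL2 had at most 2 counts in any library. Genes outside this order were highest there too, among them PTGS2, CCL20, ICAM1, MEFV and IRAK3, while SOD2, PELI1 and BIRC3 were not. The share of all genes highest in that library was not counted.

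Genes of the inflammasome and of cytokine maturation were not called either, with 0 of 10 tested at an adjusted p under 0.05 in edgeR, 2 at an unadjusted p under 0.05, both lower, where 8.55% of all genes were lower and 13.4% passed in either direction, and a median log2 fold change of 0.10. MEFV, which encodes pyrin, had the smallest p-value, at 0.858 ± 0.402 CPM (SD, n = 6) against 0.297 ± 0.105 (SD, n = 5), with an edgeR adjusted p of 0.124. CASP1, whose product cleaves the precursors of IL-1 beta and IL-18, was the other and is named for that count, at 29.9 ± 6.97 CPM (SD, n = 6) against 22.2 ± 2.74 (SD, n = 5), with an edgeR adjusted p of 0.277. Its highest level, 41.5 CPM, was in vehicle replicate 001. Vehicle replicates 003 and 004, at 22.3 and 23.7 CPM, lay inside the evexomostat range of 19.2 to 24.9. Without vehicle replicate 001 the list had 1 call, lower, where 3.24% of all genes were called lower.

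Among 18 genes of signal transduction from the receptor, 1 fell and none rose, where 0.432% of all genes were called lower and 0.174% higher. The list holds the inhibitory IRAK3 as well as genes that carry the signal. At an unadjusted p under 0.05, 4 of 18 were lower (PELI1, IRAK3, TAB2 and NFKB1), where 8.55% of all genes were. Log2 fold changes were negative in 16 of 18, with a median of -0.18 beside -0.04 over all genes. PELI1, a ubiquitin ligase that acts with the IRAK kinases, ran from 54.8 through 64.2 to 95.7 CPM under vehicle and was at 27.3, 49.1, 35.6, 37.4 and 33.5 CPM in evexomostat replicates 002, 003, 004, 005 and 007. The groups did not overlap, and the log2 fold change was -0.89 (SE 0.18, edgeR adjusted p 0.0462). With 1 library left out, the log2 fold change of PELI1 stayed between -1.02 and -0.76. Its edgeR adjusted p rose above 0.05 without vehicle replicate 003, 004, 006 or 007, where 52, 46, 79 and 56 of all genes were called, and without evexomostat replicate 002, 004, 005 or 007, where 2, 28, 1 and 3 were, and the list then had 0 calls. Without vehicle replicate 001 it had 4 calls, all lower, where 3.24% of all genes were called lower. IRAK3 had an edgeR adjusted p of 0.0780. TAB2, an adaptor of the kinase MAP3K7, and NFKB1, an NF-kB subunit, had edgeR adjusted p-values of 0.192 and 0.301.

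The largest number of calls was in the list of genes known to respond to IL-1. Of 30 listed, 28 were tested, 7 fell, none rose, and the median log2 fold change was -1.22, beside 0.432% of all genes called lower and a median of -0.04. The list was drawn up with earlier results of these data known, so it is not independent evidence of a direction, and many of its genes answer to other NF-kB-activating signals too. PTGS2, the inducible prostaglandin synthase, ran from 13.6 through 53.5 to 129.1 CPM under vehicle and from 2.95 to 7.10 under evexomostat. Its log2 fold change of -3.56 (SE 0.47) had an edgeR adjusted p of 0.0138. CCL20, a chemokine, had a log2 fold change of -2.80 (SE 0.48) with an edgeR adjusted p of 0.0247. SOD2, the mitochondrial superoxide dismutase, fell from 2386 ± 364 CPM (SD, n = 6) to 1049 ± 141 (SD, n = 5), and ICAM1, an adhesion molecule, from 212.8 ± 56.2 to 89.3 ± 10.6 CPM, with edgeR adjusted p-values of 0.0138 and 0.0189. BIRC3, an apoptosis inhibitor, was at 120.2 ± 11.4 against 71.2 ± 14.7 CPM (edgeR adjusted p 0.0462). PTGES and NFKBIZ complete the 7, with edgeR adjusted p-values of 0.0462 and 0.0466. In 12 of 28 genes the groups did not overlap, against 2.97% of all genes. MMP1, MMP3 and PLAU were the 3 with a positive log2 fold change, at 0.50, 0.56 and 0.00. The number of calls was 14 without vehicle replicate 001, where 3.24% of all genes were called lower, 4 without vehicle replicate 003, 004, 006 or 007, 3 without evexomostat replicate 004, and 0 without evexomostat replicate 002, 005 or 007, where all genes together had 2, 1 and 3 calls.

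**Figure D4:**
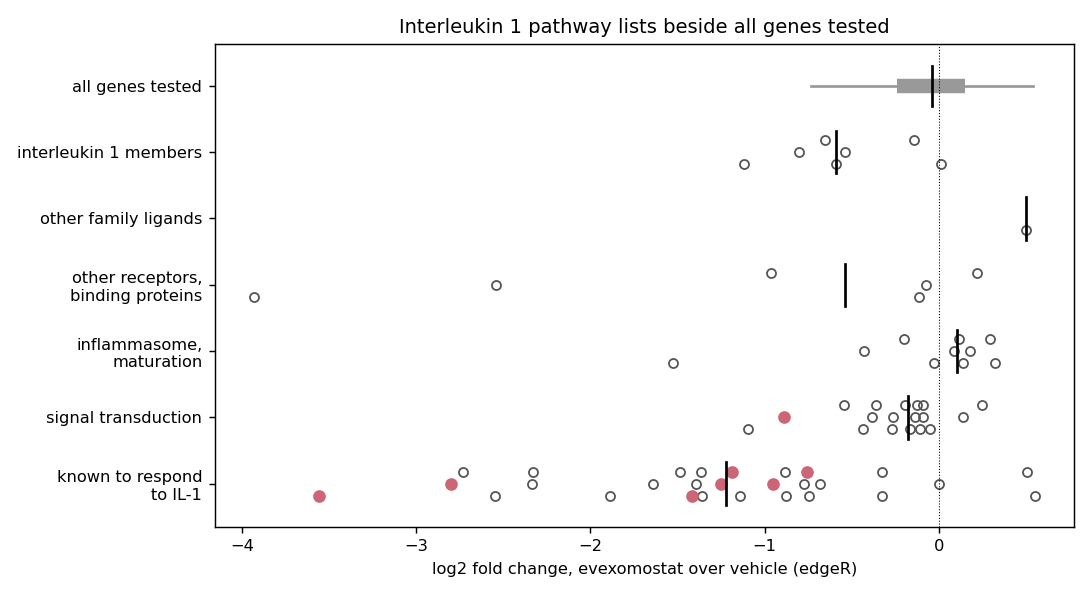
Log2 fold change of evexomostat over vehicle (x axis) for each tested gene of the members and of 5 pathway lists; filled red points have an edgeR adjusted p under 0.05, black ticks are medians, and the grey bar and line for all 16653 genes span the middle 50% and 90% of genes. The median is -0.59 for the members and -1.22 for the genes known to respond to IL-1.

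Markers of cells that make or sense IL-1 were read in the same libraries. For macrophages and monocytes, 0 of 9 tested markers were called, and the sum over 12 markers was 89.8 to 138 CPM under vehicle and 103 to 118 under evexomostat. The markers differed widely in level: CD68, LYZ, ITGAM and SPI1 averaged 42.3, 27.1, 23.6 and 10.9 CPM under vehicle, while AIF1, ADGRE1, FCER1G and CD163 averaged under 1 CPM. CD163, a scavenger receptor of macrophages, had a log2 fold change of -1.39 (SE 0.63) and was the 1 marker lower at an unadjusted p under 0.05, with an edgeR adjusted p of 0.355. The sum over 6 neutrophil markers was 36.1 to 200 CPM under vehicle and 23.2 to 101 under evexomostat, with 0 of 4 tested markers called. For 5 endothelial markers it was 10.4 to 22.4 against 9.92 to 14.0 CPM, with 0 of 4 called and CDH5 at 2 counts or fewer. Fibroblast markers summed to 397 to 2057 against 494 to 1068 CPM (0 of 7 called), or to 74.1 to 341 against 140 to 360 CPM without the collagen gene COL3A1, and squamous or basal markers to 55.9 to 317 against 41.2 to 255 CPM (0 of 6 called). Skeletal muscle markers summed to 2.72 to 20.4 CPM under vehicle and 3.82 to 421 under evexomostat. Of these, 0 of 5 tested markers were called but all 5 were higher at an unadjusted p under 0.05, where 802 of all 16653 genes were. MYH1, MYH2, MYH4 and DES had evexomostat medians of 3.28, 1.09, 1.90 and 4.05 CPM and maxima of 99.2, 74.2, 76.4 and 31.7. The untested CKM, MYLPF and TNNT3 averaged 0.166, 0.0824 and 0.126 CPM under vehicle and 0.174, 0.143 and 0.0318 under evexomostat. ACTA1, skeletal muscle actin, was at 139.6 CPM in evexomostat replicate 005 and at 0.590 to 23.4 in the other evexomostat tumours. Handling of mouse reads is not given in the sources used here, and the part of host cells in the levels of the members was not tested. The reads were processed on the human genome GRCh37, so how far these marker sums reflect mouse host cells cannot be told.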

How the data were processed

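RNA-seq of 11 tumour libraries (6 vehicle, 5 evexomostat) was analysed, with groups and replicate numbers from the titles and columns matched by the code in each description. Per the submitters' processing notes, bcl2fastq 2.17, STAR 2.7.5c, featureCounts of Subread and edgeR were used on GRCh37 (hg19). Annotation, settings, strand and mouse reads are not given in the sources used here. The authors deposited whole-number counts per symbol, RPM values (counts over the library total, matched here within 2e-13), and a comparison table with log2 fold changes and p-values.

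Counts were filtered with filterByExpr (minimum count 10, minimum total 15; 16653 of 28152 symbols kept), TMM-scaled and compared with edgeR 4.0.16's quasi-likelihood F-test in R 4.3.3 without covariates, Benjamini-Hochberg adjusted over all genes, with a threshold of 0.05. The SE is the one implied by F. IL1RN and IL33 failed the filter and had exact permutation tests of RPM over 462 assignments, not adjusted. Ratios added 0.5 to each count. Profiles used a prior count of 2.

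Named genes were the 9 members, per list the called genes (at most 5, smallest adjusted p first) or else the smallest p, and the 5 genes nearest to IL1R1. Members and lists were chosen with earlier results of these data known. No 2 libraries were duplicates (smallest chi-square per degree of freedom over 55 pairs, 16.7). Alternatives used limma 3.58.1 and DESeq2 1.42.0, other scalings, no filter, RPM with pseudocounts 1 and 0.1, a replicate block and leaving out each library. Fits were tested on simulated counts without a library that stands apart like vehicle replicate 001, so these do not cover its influence.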

Additional observations from a re-analysis of the deposited data

Results flagged for a closer look

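In 18 groups of libraries (9 genes by 2 treatments), 5 had 1 library far from the rest by Dixon's criterion. About 0.9 would be flagged by chance if the groups were independent and normally distributed. The genes share the same libraries, so the groups are not independent and 0.9 is only a rough guide. Each stood apart because its gap to the nearest library was large against the whole range of its group.

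In vehicle replicate 007, IL1R1 reached 139.3 CPM, while the remaining 5 vehicle tumours spanned 30.3 to 67.2. IL1RN reached 0.882 CPM in the same library, the rest spanning 0.0624 to 0.242. Vehicle replicate 001 had the lowest IRAK1, 455.9 CPM, the rest spanning 1056 to 1351. It also had the highest IL33, 0.775 CPM, the rest spanning 0.0258 to 0.200. For IL1B, evexomostat replicate 004 reached 35.3 CPM, while the remaining 4 tumours of its group spanned 13.1 to 18.1. The cause was not tested for any of the 5.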

How the results depend on the processing

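For the changes given here the cause was not tested. The 101 genes called overall became 649 with DESeq2, 1059 with sample quality weights and 1 to 865 with 1 library left out. Calls among the members went from 0 to 1 with DESeq2 (IL1R1, log2 fold change -1.12, adjusted p 0.0223), to 2 with quality weights (IL1R1 at -1.06, adjusted p 0.0146, and IRAK2 at -0.61, adjusted p 0.0460), and ranged from 0 to 1 with 1 library left out.

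Both groups hold libraries numbered 003, 004, 005 and 007. Correlating the deviations from group means within each number gave -0.27, 0.07, 0.05 and -0.10. These values are too few to settle whether libraries of equal number are paired. With a replicate block, these 8 libraries had 107 called genes and 0 called members; the same 8 libraries without a replicate block gave 733 genes and 1 member, IRAK2 at -0.91 (adjusted p 0.0126). Under the block IL1R1 was at -1.18, IL1A at -0.996, IL1B at -0.98, IRAK2 at -0.91 and IRAK1 at -0.43 (-0.41 without the block), and the genes known to respond to IL-1 had 4 calls. With the block the SE of IL1A was 0.19 (0.34 without it) and that of IL1B 0.17 (0.31 without it). Their edgeR adjusted p-values were 0.0675 and 0.0629 with the block, and 0.143 and 0.117 without it. The SE of IRAK1 was also smaller with the block, while those of IL1R1, IL1RAP, IL18 and IRAK2 were larger.

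IRAK1 turned from -0.14 to 0.0025 and 0.0027 when limma-trend was run on RPM with pseudocounts of 1 and 0.1. These settings shifted the all-gene median by 0.11 and 0.14. With 1 library left out, log2 fold changes ranged from -1.08 to -0.62 for IL1A, -1.01 to -0.47 for IL1B, -1.26 to -0.76 for IL1R1, -0.63 to -0.39 for IL1RAP, -0.0903 to 0.16 for IL18, -0.29 to -0.03 for IRAK1 and -0.69 to -0.46 for IRAK2. The RPM difference of IL33 ranged from -0.0442 to 0.0841. The log2 ratio differences ranged from -0.58 to 0.39 for IL1A over IL1RN and -0.23 to 0.50 for IL1B over IL1RN.

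The 7 calls among genes known to respond to IL-1 became 4 with upper quartile scaling, 19 with DESeq2, 19 with quality weights, 4 and 3 with the RPM settings, and 0 to 14 with 1 library left out. The 1 call of signal transduction became 0 with upper quartile scaling and both RPM settings, 2 with DESeq2, 3 with quality weights, 5 on 8 libraries without a replicate block and 0 to 4 with 1 library left out. Other receptors, with 6 tested, had 3 calls with DESeq2 and 1 with quality weights. The inflammasome list, with 10 tested, had 1 with each of these and 1 on 8 libraries without a replicate block. With 1 library left out it had 0 to 1. Shares called over all genes were 3.92% with DESeq2, 6.36% with quality weights and 4.42% on those 8 libraries. They were 0.42% with upper quartile scaling, 0.444% and 0.408% with the RPM settings, and 0.00596% to 5.22% with 1 library left out. IL1RN and IL33 had at most 24 and 16 counts in any library, so differences in them are imprecise.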
